A study of Homo sapiens with 6 samples.

Results

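The expression of the super elongation complex genes was examined in AN3CA cells, a human line established from an endometrial cancer and positive for *PAX2*, after *PAX2* knockdown. The genes were chosen by symbol and were the 4 AFF scaffold genes (*AFF1*, *AFF2*, *AFF3*, *AFF4*), the 3 ELL elongation factor genes (*ELL*, *ELL2*, *ELL3*), the YEATS domain genes *MLLT1* and *MLLT3*, and the kinase gene *CDK9*. All 10 were present among the 17471 genes listed, and 9 of them were among the 13163 genes with enough signal to test. *AFF3* was singled out because of its difference between these same libraries, so its values are given as a description with no test, and the other 9 genes were taken as its family and complex with earlier results of these data known. RNA-Seq had been run on 3 libraries of cells carrying an empty lentiviral hairpin vector (shEV) and 3 libraries of cells carrying a single short hairpin RNA against *PAX2* (shPAX2). Both populations had been transduced and then selected with puromycin, so they share the selection. With a single hairpin, an effect of *PAX2* loss cannot be told apart from other differences between these populations. The methods name an empty vector as the control, whereas other passages of the study call the AN3CA control scrambled. Nothing in the labels says whether the libraries came from separate cultures, so p-values measure the spread between these libraries only.

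The super elongation complex releases paused RNA polymerase II into productive elongation. An AFF protein serves as the flexible scaffold, and it holds the kinase P-TEFb (CDK9 with a cyclin T), an ELL protein, which raises the rate of the polymerase, and ENL or AF9, the products of *MLLT1* and *MLLT3*, which read acylated histones. Several of these genes are known as fusion partners of *KMT2A* (MLL) in acute leukemia, and *AFF3*, first described as LAF4, is best known from lymphoid cells and brain. Values below are TPM, meaning reads per gene length scaled to the total of the library, so levels can be compared between genes. The fit gives log2 fold changes of TPM + 0.5, shPAX2 minus shEV.

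Whole reads could be recovered from the TPM values. The shEV libraries held 10730909 to 18221859 reads and the shPAX2 libraries 19422615 to 29405787, and the shPAX2 group was the deeper throughout. *PAX2*, the targeted gene, was at 4.03, 3.66 and 2.74 TPM in shEV and at 0.916, 0.723 and 1.17 TPM in shPAX2, and the groups did not overlap (exact two-sided permutation test p = 0.1, the smallest that 3 against 3 libraries allow). Its log2 fold change was -1.47 (SE 0.18, limma adjusted p 0.000294). The labels call the cells epithelial, yet *EPCAM*, *KRT7*, *KRT8*, *KRT19* and *CDH1* were near 0, and of 9 listed epithelial markers only *KRT18* reached the test. *VIM*, a mesenchymal filament gene, stood at 3750 to 4410 TPM, and the summed mesenchymal markers were at 5338 to 5795 TPM in shEV and 4808 to 4905 TPM in shPAX2, most of it *VIM*. The list was not uniformly high, since *CDH2* and *THY1* had at most 3 reads in every library and *FN1* was at 0.131 to 0.827 TPM. *COL1A1* and *PDGFRB* were tested and not called, at means of 1.02 and 1.04 TPM in shEV and 0.888 and 0.724 TPM in shPAX2. Of the 7 tested, *COL3A1* (2.79) and *ACTA2* (2.16) were higher and *COL1A2* (-1.11) and *S100A4* (-1.85) lower on the log2 scale, each with a limma adjusted p under 0.05, and the part of these differences in the results below was not tested. Over all genes tested the median log2 fold change was -0.10, a shift that median-of-ratios scaling moved to 0.01. In bulk RNA, fewer cells with a transcript and less transcript per cell cannot be told apart.

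*AFF3* lies on the minus strand of chromosome 2, from 100161881 to 100808890 in GRCh37, and RefSeq annotates it with a pair of start windows. Both are shown with the start window of *AFF4*, the most abundant AFF gene in these cells, because *AFF3* was the family member that went from near 0 to a clear signal. Each sequence runs 5′ to 3′ on the minus strand from 250 bases before to 50 bases after the annotated start, and CpG dinucleotides are in capitals. The sequences are RefSeq's (GRCh38.p14). On its own strand, each matched its own chromosome of GRCh37 exactly once, at chr2:100759003-100759302 and chr2:100721996-100722295 for *AFF3* and at chr5:132299277-132299576 for *AFF4*. Other chromosomes were not searched.
AFF3 start window 1: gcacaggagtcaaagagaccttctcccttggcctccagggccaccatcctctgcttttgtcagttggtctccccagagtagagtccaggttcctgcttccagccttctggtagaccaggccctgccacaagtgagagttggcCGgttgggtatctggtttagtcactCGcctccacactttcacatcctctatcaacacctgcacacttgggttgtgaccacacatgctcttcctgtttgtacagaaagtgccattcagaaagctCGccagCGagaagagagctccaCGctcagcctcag
AFF3 start window 2: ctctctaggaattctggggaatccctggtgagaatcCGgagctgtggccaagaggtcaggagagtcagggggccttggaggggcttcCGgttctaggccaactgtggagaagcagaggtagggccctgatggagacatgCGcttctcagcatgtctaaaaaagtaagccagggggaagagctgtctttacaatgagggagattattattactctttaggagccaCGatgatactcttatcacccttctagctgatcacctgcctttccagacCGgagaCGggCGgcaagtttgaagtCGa
AFF4 start window: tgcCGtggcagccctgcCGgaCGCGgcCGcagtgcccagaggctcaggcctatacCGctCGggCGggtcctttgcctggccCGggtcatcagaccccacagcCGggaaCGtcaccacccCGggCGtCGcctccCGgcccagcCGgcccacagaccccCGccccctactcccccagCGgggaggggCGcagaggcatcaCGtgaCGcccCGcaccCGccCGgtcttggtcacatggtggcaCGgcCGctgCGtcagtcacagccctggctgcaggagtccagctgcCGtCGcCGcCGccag

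The *AFF3* windows held 5 and 8 CpG dinucleotides, and the *AFF4* window held 31. Of 35116 start windows of this length, whose median was 14 CpG, 33.7% and 41.6% held as few as the *AFF3* windows and 81.1% as few as that of *AFF4*. The *AFF2* window held 1 CpG, and the windows of *AFF1*, *CDK9*, *ELL*, *ELL3*, *MLLT1* and *MLLT3* held 24 to 46. The *AFF2* window and both *AFF3* windows lie inside the annotated gene spans, so the outermost starts of these genes were not scored, and *ELL2* had no window. The 7-base core of the PAX2 matrix, GTCACGC, was searched on both strands. It occurred in none of the 11 windows of 9 members and in 2.52% of all windows, and no match says only that these letters are not in these windows. The data do not show which start the *AFF3* reads came from.

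**Figure D1:**
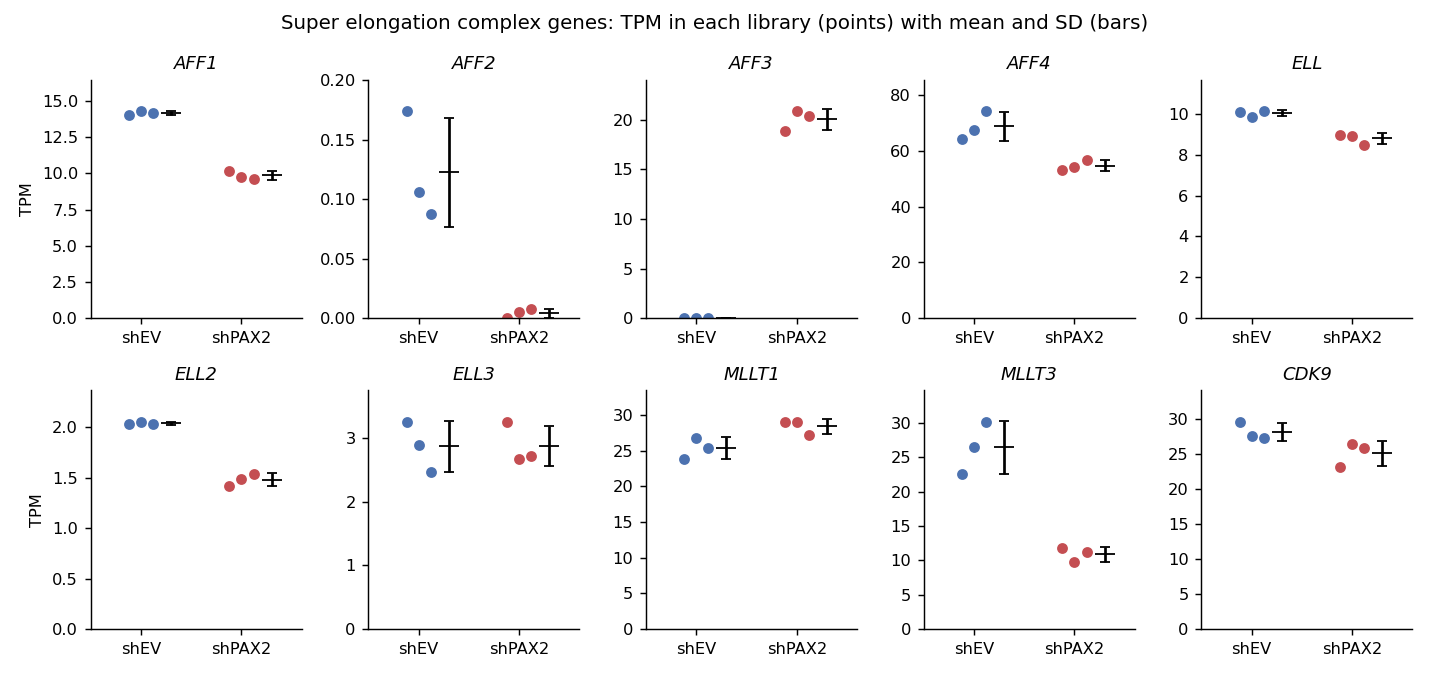
TPM of the 10 super elongation complex genes in each library, with a separate axis from 0 for each gene. Points are single libraries (blue, shEV; red, shPAX2), and the bars beside them give the mean and SD of 3 libraries. *AFF3* is at the baseline in shEV and at 18.9 to 20.9 TPM in shPAX2, while *AFF1*, *AFF4*, *ELL2* and *MLLT3* are lower in every shPAX2 library.

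The scaffold genes were examined first. The shEV libraries, in replicate order, gave 0, 1 and 2 reads of *AFF3*, or 0, 0.0138 and 0.0270 TPM. The shPAX2 libraries gave 2371, 2313 and 1632 reads, or 18.9, 20.9 and 20.4 TPM. All shEV libraries were therefore at or under the floor of 3 reads, and all shPAX2 libraries were close to each other (mean 20.0 ± 1.05 TPM, SD, n = 3). Against the highest TPM that 3 reads are worth in a shEV library, 0.0680, *AFF3* was at least 295-fold higher in shPAX2. The floor covers counting error only. At 20.0 TPM, *AFF3* stood above 50.8% of the genes tested in shPAX2. Of 3297 listed genes with at most 3 reads in each shEV library, 1 had a higher mean in shPAX2.

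*AFF2*, the fragile X-associated family member on chromosome X, lay below the filter and was not tested. It was at 0.174, 0.106 and 0.0877 TPM in shEV, from 13, 13 and 11 reads. In shPAX2 it was listed at 0, 0.00534 and 0.00738 TPM, from 0, 1 and 1 reads, although those libraries were deeper. The groups did not overlap, and against the floor of 3 reads *AFF2* was at least 5.54-fold lower in shPAX2. In shEV it supplied 0.15% ± 0.0643 of the summed TPM of the 4 AFF genes (SD, n = 3).

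*AFF4*, which encodes the scaffold of the classical complex, was the most abundant AFF gene in both groups. It fell from 64.3, 67.7 and 74.4 TPM in shEV to 53.1, 54.3 and 56.8 TPM in shPAX2. Every shPAX2 library was below every shEV library, and the log2 fold change was -0.32 (SE 0.07, limma adjusted p 0.00483). *AFF1* (AF4), the most frequent *KMT2A* partner in infant leukemia, was at 14.0, 14.3 and 14.2 TPM in shEV and at 10.2, 9.75 and 9.64 TPM in shPAX2. Its libraries were tight within each group, and it fell by 0.50 on the log2 scale (SE 0.07, limma adjusted p 0.00051).

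Because *AFF3* appeared while *AFF1* and *AFF4* fell, the makeup of the family changed more than its sum. The summed TPM of the 4 AFF genes was 83.1 ± 5.16 in shEV and 84.6 ± 2.33 in shPAX2 (SD, n = 3 each), and the groups overlapped. Without *AFF3* the sum was 83.1 ± 5.15 and 64.6 ± 1.63. *AFF4* supplied 82.8% ± 1.03 of the sum in shEV and 64.7% ± 0.749 in shPAX2. *AFF1* supplied 17.1% ± 0.989 and 11.7% ± 0.659. *AFF3* supplied 0.0157% ± 0.0152 in shEV and 23.7% ± 0.836 in shPAX2. The order by level was thus *AFF4*, *AFF1*, *AFF2*, *AFF3* in shEV and *AFF4*, *AFF3*, *AFF1*, *AFF2* in shPAX2, and neighbours in each order did not overlap in any library. These shares and sums are descriptions and were not tested, since *AFF3* was chosen for its change. The sums were not computed under another scaling. Median-of-ratios scaling moved the log2 fold changes of *AFF1* and *AFF4* to -0.39 and -0.21, so the comparison of sums depends on the scaling.

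**Figure D2:**
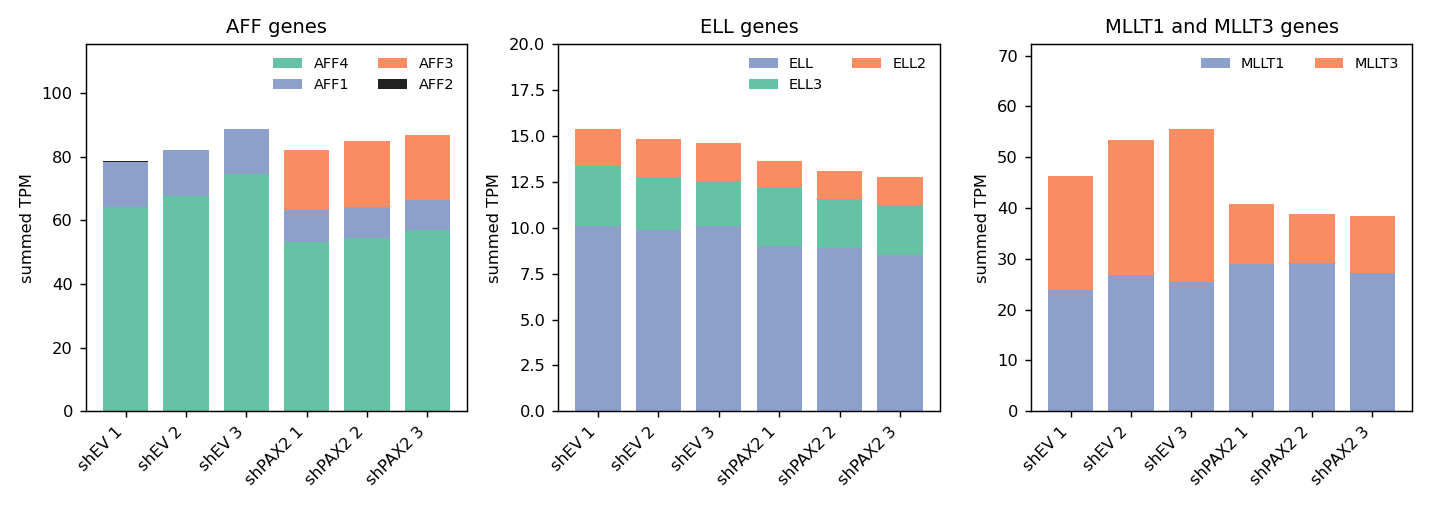
Summed TPM of the AFF genes, the ELL genes and the pair *MLLT1* and *MLLT3* in each library, stacked by gene, with each axis starting at 0. The height of the AFF bars overlaps between groups while *AFF3* (orange) makes up 23.7% of them in shPAX2, and the *MLLT3* part (orange, right panel) shrinks from 50.9% to 27.7%.

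Of the histone-reading subunit genes only *MLLT3* was called. *MLLT3*, which encodes AF9, was at 22.5, 26.6 and 30.2 TPM in shEV and at 11.8, 9.71 and 11.2 TPM in shPAX2. The groups were far apart, and the shPAX2 mean was 41.2% of the shEV mean. *MLLT3* overlaps the microRNA genes *MIR4473* and *MIR4474* on its own strand. It fell by 1.23 on the log2 scale (SE 0.11, limma adjusted p 7.23e-05). Among the 8 tested members other than *AFF3* it was the only one past a fold threshold of 1 on the log2 scale with an adjusted p under 0.05, which 4.54% of all genes tested passed.

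*MLLT1*, which encodes the related reader ENL, was at 23.8, 26.8 and 25.4 TPM in shEV and at 29.0, 29.1 and 27.2 TPM in shPAX2. The groups were separate by a narrow margin, with a log2 fold change of 0.16 (SE 0.07) that did not pass (limma adjusted p 0.0759). Its call depended on the scaling: with median-of-ratios scaling it was 0.27 (adjusted p 0.0121), and the adjusted p ran from 0.0121 to 0.218 over the alternatives. *MLLT3* supplied 50.9% ± 3.02 of the summed TPM of the pair in shEV and 27.7% ± 2.32 in shPAX2 (SD, n = 3 each), and the sum was 51.8 ± 4.84 and 39.3 ± 1.28 TPM.

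The ELL genes were expressed at lower levels. *ELL*, the founding member, was at 10.1, 9.86 and 10.1 TPM in shEV and at 8.99, 8.92 and 8.50 TPM in shPAX2. The groups did not overlap, but its log2 fold change of -0.18 (SE 0.07) did not pass (limma adjusted p 0.0737). Quantile normalization turned the direction of *ELL*, to 0.04 with an adjusted p of 0.707, and its adjusted p ran from 0.0379 to 0.707 over the alternatives.

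*ELL2*, known for its role in immunoglobulin secretion by plasma cells, fell from 2.03, 2.06 and 2.03 TPM to 1.42, 1.48 and 1.54 TPM. Its groups were compact and separate, and the log2 fold change was -0.36 (SE 0.125, limma adjusted p 0.0437). This call was close to the threshold. It passed in 5 of 14 alternatives, was lost when any 1 library was left out, under both other scalings and with the replicate block, and its adjusted p ran from 0.00352 to 0.561. The libraries held 66 to 131 *ELL2* reads each.

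*ELL3* was at 3.26, 2.89 and 2.46 TPM in shEV and at 3.25, 2.67 and 2.72 TPM in shPAX2. Its groups overlapped, and the log2 fold change was 0.00 (SE 0.14, limma adjusted p 0.981). *ELL3* overlaps *PDIA3* and *SERF2* on the opposite strand, and whether the counting used strand is not given in the sources used here. The summed TPM of the ELL genes was 14.9 ± 0.385 in shEV and 13.2 ± 0.453 in shPAX2 (SD, n = 3 each), and *ELL* supplied 67.1% ± 1.93 and 66.9% ± 1.21 of it.

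*CDK9*, the kinase of P-TEFb, was at 29.6, 27.6 and 27.3 TPM in shEV and at 23.0, 26.3 and 25.8 TPM in shPAX2. Replicate 1 of shPAX2 was the lowest library and the groups did not overlap, but the log2 fold change of -0.17 (SE 0.07) did not pass (limma adjusted p 0.0905). *CDK9* overlaps the microRNA gene *MIR3960* on its own strand.

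Counted together, 4 of the 8 tested members other than *AFF3* had an adjusted p under 0.05 in limma, all of them lower in shPAX2, and 7 of 8 had groups that did not overlap. Over all genes tested, 42.8% had an adjusted p under 0.05, with 30.5% lower and 12.2% higher in shPAX2, and the groups did not overlap in 54.9%. The share called, 50%, was near that of all genes, while the shares of lower calls and of separate groups were above theirs. Whether the members differ from other genes was not tested. The member count is small, and nothing particular to the complex is read from it. Of these 8, 0 were called higher in limma, while 1 (*MLLT1*) was higher at an unadjusted p under 0.05 and also at an adjusted p under 0.05 with voom. The median log2 fold change of the 8 was -0.25 against -0.10 for all genes. None of the 10 genes lies on chromosome 6, where the median of 629 tested genes was 0.39, against -0.115 elsewhere.

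**Figure D3:**
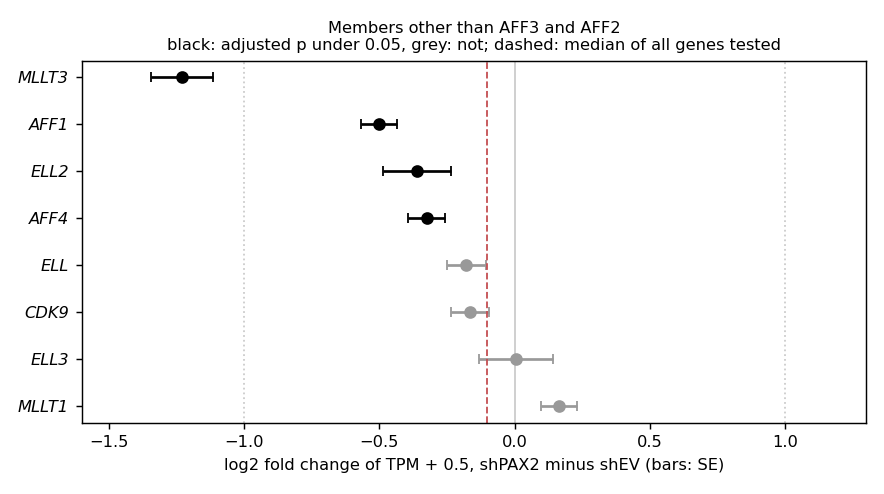
Log2 fold change of TPM + 0.5, shPAX2 minus shEV, for the 8 tested members other than *AFF3*, with SE bars. Black points (*MLLT3*, *AFF1*, *ELL2* and *AFF4*) have an adjusted p under 0.05 and grey points do not, the dashed line is the median of all genes tested (-0.10), and *MLLT3* alone lies beyond the dotted line at -1.

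The partners of the complex were examined next, from 7 lists of 64 genes by role, of which 63 were tested. By limma, 11 passed an adjusted p of 0.05 as higher and 9 as lower in shPAX2, which is 31.7% of those tested, against 42.8% called over all genes (12.2% higher and 30.5% lower). Whether the partners differ from other genes was not tested. The median log2 fold change of the partners was -0.04. Median-of-ratios scaling gave 17 higher and 4 lower, and quantile normalization 11 and 5, so the balance of directions depended on the scaling. Without shPAX2 replicate 2 there were 7 higher and 4 lower.

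The cyclin and inhibitor genes of P-TEFb did not pass. Cyclin T genes *CCNT1* and *CCNT2* had log2 fold changes of -0.10 and -0.14. *HEXIM1*, which encodes the inhibitor that holds P-TEFb in the 7SK particle and which is itself induced when P-TEFb is released, was at 13.5, 13.1 and 12.9 TPM in shEV and at 9.87, 12.1 and 12.0 TPM in shPAX2. Its log2 fold change was -0.22 (SE 0.09, limma adjusted p 0.0793). Of the 7 tested genes of this list, 0 passed in limma and 0 with voom, and 2 were lower at an unadjusted p under 0.05. Over all genes tested, 42.8% were called in limma, and whether this list differs from other genes was not tested. *RN7SK* was not analysed here.

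Genes of the little elongation complex, which uses ELL at small nuclear RNA genes, went both ways. *ICE2*, listed as *NARG2*, rose from 14.3, 15.1 and 14.8 TPM to 24.9, 20.4 and 22.2 TPM (log2 fold change 0.59, SE 0.08, limma adjusted p 0.000601). *ZC3H8* fell from 28.4, 27.3 and 29.5 TPM to 19.5, 19.5 and 17.6 TPM (log2 fold change -0.58, SE 0.07, limma adjusted p 0.000225). Both had groups well apart. Of the 6 genes in this list, 1 was higher and 2 were lower, beside 12.2% higher and 30.5% lower over all genes. The ELL cofactor genes *EAF1* and *EAF2* had log2 fold changes of 0.04 and 0.02 and did not pass.

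Among the MLL and DOT1L partners, *MLLT6*, whose product AF17 binds DOT1L, rose from 16.6, 17.7 and 18.9 TPM to 31.9, 31.7 and 28.8 TPM (log2 fold change 0.78, SE 0.07, limma adjusted p 6.79e-05). *DOT1L*, the H3K79 methyltransferase gene, fell from 13.1, 14.5 and 13.6 TPM to 12.0, 11.6 and 11.3 TPM (log2 fold change -0.23, SE 0.07, limma adjusted p 0.0288). The *DOT1L* call held in 8 of 15 alternatives, with adjusted p from 0.019 to 0.654. *DOT1L* overlaps *AP3D1* and *PLEKHJ1* on the opposite strand, and *MLLT6* overlaps *MIR4726*. *KMT2A* (listed as *MLL*), *MEN1*, *PSIP1* and *MLLT10* did not pass.

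Of 6 pausing factor genes 1 was called, beside 42.8% of all genes tested. It was *NELFE*, a subunit gene of the negative elongation factor, which rose from 20.0, 18.0 and 17.7 TPM to 25.2, 27.0 and 30.2 TPM (log2 fold change 0.55, SE 0.08, limma adjusted p 0.000925). *NELFE* lies on chromosome 6, where the median gene was at 0.39. The same holds for *CCNC*, the cyclin gene of the Mediator kinase, which rose from 87.1, 86.5 and 93.1 TPM to 128, 139 and 143 TPM (log2 fold change 0.62, SE 0.06, limma adjusted p 0.000113). The part of the chromosome-wide difference in these results was not tested. *CDK8*, the kinase gene that pairs with cyclin C, fell from 53.1, 55.6 and 60.5 TPM to 30.2, 38.4 and 43.7 TPM (log2 fold change -0.60, SE 0.13, limma adjusted p 0.00871). *CCNC* and *CDK8* belong to the list of other transcription kinases. Of its 10 genes, 1 was higher and 3 were lower, beside 12.2% and 30.5% of all genes. The other lower genes were *MED12* and *CDK13*, with log2 fold changes of -0.30 and -0.20.

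Among 16 genes of the PAF1 complex and other elongation factors, 3 were higher and 3 lower. *TCEA3*, one of the genes for the cleavage factor TFIIS, fell from 2.11, 2.64 and 2.44 TPM to 1.24, 0.608 and 0.388 TPM and was the only partner past the fold threshold (log2 fold change -1.27, SE 0.24, limma adjusted p 0.00276). *ELOA*, listed as *TCEB3* and encoding elongin A, rose from 45.9, 44.5 and 46.3 TPM to 52.5, 63.8 and 65.6 TPM (log2 fold change 0.40, SE 0.08, limma adjusted p 0.00511). Of 12 RNA polymerase II subunit genes, 4 were higher and 0 lower in limma, with 0 lower at an unadjusted p under 0.05 and 0 lower with voom, beside 12.2% higher and 30.5% lower over all genes. Among the 4, *POLR2C* had the largest log2 fold change (0.31, SE 0.07, limma adjusted p 0.0061) and *POLR2G* the smallest (0.20, SE 0.07, limma adjusted p 0.0414), and the *POLR2G* call held in 8 of 15 alternatives. The lowest of the 12 was *POLR2A*, which did not pass (log2 fold change -0.37, SE 0.21, limma adjusted p 0.196). It was spread in shEV, at 14.8, 14.2 and 8.40 TPM. The median log2 fold change of the list was 0.03.

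**Figure D4:**
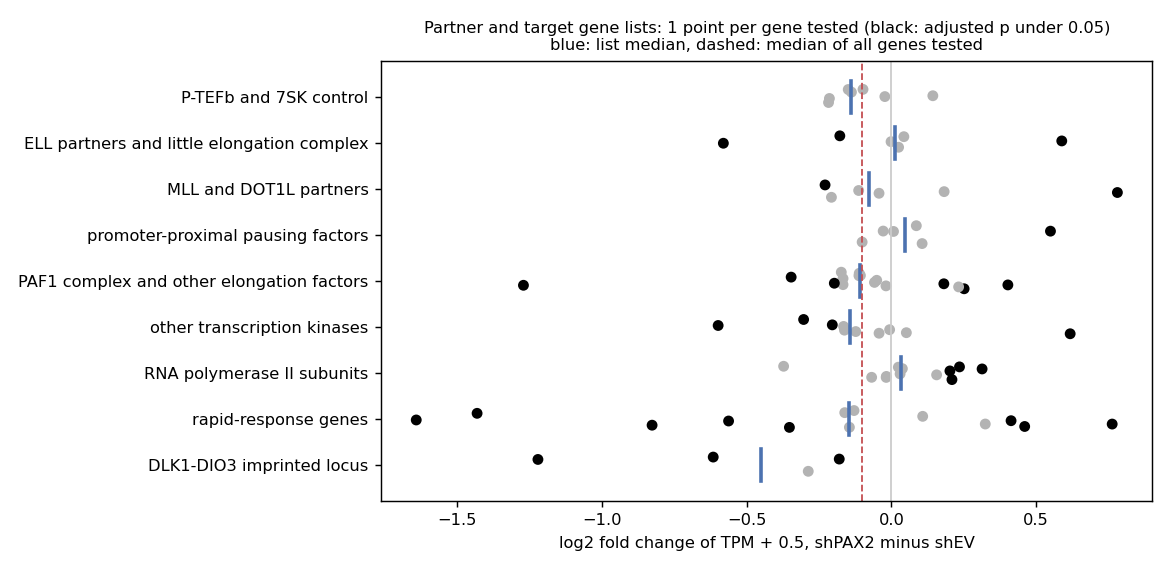
Log2 fold change of TPM + 0.5 for each tested gene of the 7 partner lists and 2 target lists, 1 point per gene, black where the adjusted p is under 0.05. Blue ticks are list medians and the dashed line is the median of all genes tested (-0.10). Called genes lie on both sides in most lists, and no gene of the P-TEFb and 7SK list is black.

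A pair of target lists was added because the complex is known to be recruited to rapidly induced genes, and because AFF3 is known to bind the imprinted *DLK1-DIO3* locus in embryonic stem cells. Of 13 tested rapid-response genes, 3 were higher and 5 lower, beside the 12.2% and 30.5% of all genes. *FOS* fell from 43.6, 22.5 and 29.7 TPM to 7.18, 11.3 and 10.7 TPM, with a wide spread in shEV (log2 fold change -1.64, SE 0.305, limma adjusted p 0.012). A replicate block took its adjusted p to 0.0686. *HSPA1B*, a heat shock protein gene on chromosome 6, rose from 10.8, 11.5 and 11.2 TPM to 17.8, 21.7 and 18.7 TPM (log2 fold change 0.76, SE 0.08, limma adjusted p 0.000176). Its sequence is nearly that of *HSPA1A*, so the division of reads between the pair is uncertain.

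At the *DLK1-DIO3* locus, 3 of 4 tested genes were lower and 0 higher in limma, with 0 higher at an unadjusted p under 0.05 and 0 higher with voom. Among all genes tested, 30.5% were lower and 12.2% higher. *MEG3*, a long noncoding RNA of the maternal allele, was 1 of the 3 (log2 fold change -0.61, SE 0.15, limma adjusted p 0.0117). The maternally expressed RNA *MEG8* fell from 2.24, 1.36 and 2.67 TPM to 0.394, 0.447 and 1.03 TPM (log2 fold change -1.22, SE 0.26, limma adjusted p 0.00628), on 3 to 12 reads per library, and it overlaps small nucleolar RNA genes on its own strand. *RTL1* fell from 45.9, 44.7 and 47.0 TPM to 39.4, 41.0 and 40.9 TPM (log2 fold change -0.18, SE 0.05, limma adjusted p 0.0261). The *RTL1* call held in 10 of 15 alternatives, and *RTL1* overlaps *MEG8* on the opposite strand. *DIO3* did not pass, and *DLK1* and *MEG9* were not tested.

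The neighbourhood of *AFF3* on chromosome 2 was examined to see whether genes around it differed as well. Of 18 listed genes with a start within 1 Mb of either end, 17 were tested, and 1 was higher and 6 lower, with a median log2 fold change of -0.20. Over all genes 12.2% were higher and 30.5% lower, so the counts of called genes around *AFF3* were near the background. Median-of-ratios scaling gave 2 higher and 3 lower. Of the 17, 2 (*LONRF2* and *KIAA1211L*) passed the fold threshold with an adjusted p under 0.05, beside 4.54% of all genes. The groups did not overlap in 13, beside 54.9% of all genes. *KIAA1211L* is in each of these counts although it met the filter only through shEV, where it is high, so its part in them is no support. Whether these shares differ from those of other genes was not tested. *LONRF2*, the nearest listed gene beyond the start of *AFF3*, 79.4 kb away at 100888337 to 100938963 in GRCh37, fell from 5.96, 5.77 and 5.90 TPM to 1.39, 1.08 and 0.869 TPM. It was nearly constant within shEV, and its log2 fold change was -2.00 (SE 0.14, limma adjusted p 1.56e-05). *REV1*, a translesion polymerase gene and the nearest beyond the 3′ end at 55.4 kb, was at 14.8, 16.3 and 16.8 TPM in shEV and at 14.3, 13.9 and 14.2 TPM in shPAX2, and did not pass (log2 fold change -0.17, SE 0.07, limma adjusted p 0.0851).

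Farther out, *CRACDL*, listed as *KIAA1211L*, was at 2.98, 2.81 and 2.43 TPM in shEV and at 0.304, 0.134 and 0.291 TPM in shPAX2, at a distance of 609 kb. It met the filter only through shEV, where it is high, so its values are given with no test, and it counts among the 6 called lower on that footing. *TXNDC9* was the single gene called higher (0.21, SE 0.06, limma adjusted p 0.0238), and it overlaps *EIF5B* on the opposite strand. The other called genes were *COA5*, *TSGA10*, *LIPT1* and *MITD1*, with log2 fold changes of -0.33, -0.58, -0.35 and -0.21. *LONRF2* kept its call in 15 of 15 alternatives. Without shEV replicate 3 only *LONRF2* and *COA5* were called, and *KIAA1211L* was not tested without any 1 of the shEV libraries. No neighbour rose together with *AFF3* past the fold threshold.

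**Figure D5:**
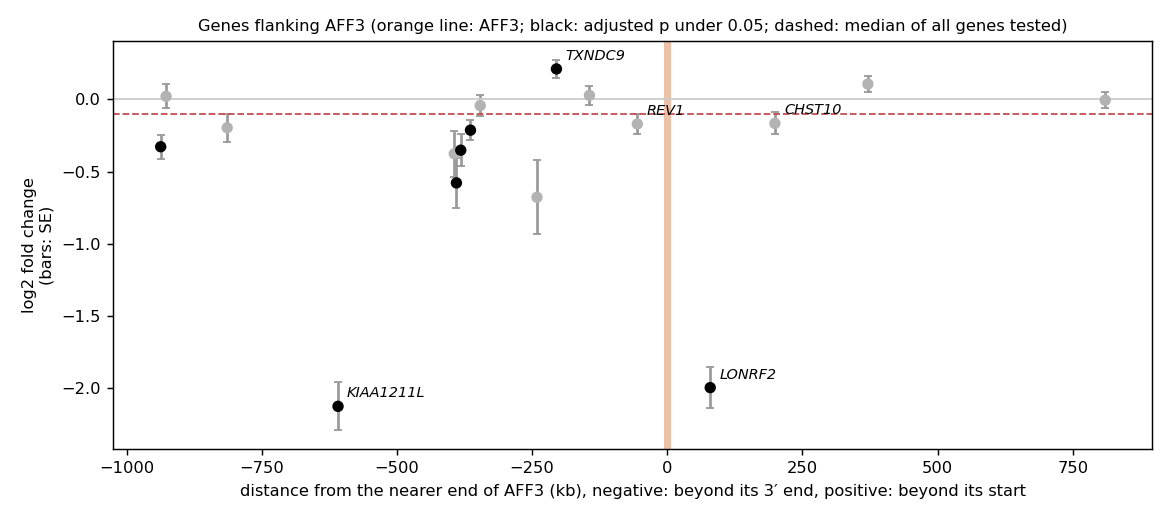
Log2 fold change of TPM + 0.5 with SE bars for the 17 tested genes within 1 Mb of *AFF3*, by distance in kb from its nearer end. The orange line marks *AFF3* itself, whose values are not plotted, black points have an adjusted p under 0.05, and the dashed line is the median of all genes tested (-0.10). *LONRF2* and *KIAA1211L* lie near -2 and the rest between -0.68 and 0.21. *KIAA1211L* met the filter only through shEV, where it is high, so its point is a description.

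The genes whose profile over the 6 libraries was nearest to that of *AFF3*, by the root mean square difference of log2(TPM + 0.5), were *EVA1C* (0.292), *SEZ6L2* (0.603), *UNC13A* (0.833), *SVIP* (0.85) and *LINGO2* (0.862). Each met the filter only through shPAX2, where it is high. Since *AFF3* was chosen for its difference, such profiles follow from the choice, and the values are a description with no test. *EVA1C* was at 0.0964, 0.117 and 0.0573 TPM in shEV, from at most 2 reads, and at 25.5, 25.2 and 26.0 TPM in shPAX2. *SEZ6L2* stood at 10.9 to 13.0 TPM and *UNC13A*, which encodes a synaptic vesicle priming protein, at 8.20 to 8.93 TPM in shPAX2. They lie on chromosomes 21, 16, 19, 11 and 9, so none is a neighbour of *AFF3*. Because *AFF3* is known from lymphoid cells and brain, markers of both were counted. All 6 listed lymphoid markers were at or near 0 (summed 0.243 to 0.45 TPM in shEV and 0.0732 to 0.321 TPM in shPAX2), with *PTPRC* at 1 read or fewer per library. Of 7 listed neuronal markers, *TUBB3* and *GAD1* were tested and the others had at most 9 reads in a library, *RBFOX3* and *SYT1* at most 1. *SNAP25* had 0 reads in every shEV library and 9, 9 and 2 reads in the shPAX2 libraries. *GAD1* did not pass (log2 fold change 0.24, limma adjusted p 0.0966). The summed neuronal markers were at 180 to 188 TPM in shEV and 231 to 248 TPM in shPAX2, most of it *TUBB3*, which rose by 0.38 on the log2 scale (SE 0.06, limma adjusted p 0.000942). The part of this rise in the *AFF3* values was not tested.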

How the data were processed

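RNA-Seq of 6 AN3CA libraries, 3 shEV and 3 shPAX2 by their titles, was analysed. The authors deposited TPM values for 17471 gene symbols, 1 column per library. The submitters' processing notes name STAR, Subread featureCounts, edgeR and hg19. The methods, written for another cell line, give RSEM instead, whose estimated counts need not be whole. Within each gene the TPM values were whole multiples of 1 read (tolerance 1e-09, 100% of genes), as featureCounts gives, which gave reads per library of 10730909 to 29405787, up to a factor shared by all libraries of a gene.

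Genes with at least 0.5 TPM in at least 3 libraries (13163) were tested with limma 3.58.1 in R 4.3.3 (lmFit and a trended, robust eBayes) on log2(TPM + 0.5), with no covariate, two-sided. P-values were adjusted by Benjamini-Hochberg across these genes. The pseudocount understates the change of low genes. A call is an adjusted p under 0.05, and the fold threshold is 1 on the log2 scale. A fold against a group with at most 3 reads in every library was computed against the highest TPM that 3 reads are worth there. The fit and the read recovery were tested on simulated data.

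The members, lists and named genes were chosen with earlier results of these data known. Named were the members, *PAX2*, *HEXIM1*, the highest and lowest called gene of each list, the nearest and the called flanking genes, and the 5 nearest profiles. Others named for a list's count carry their values only. Positions are from GENCODE release 44 on GRCh37, the hg19 assembly (94.3% of listed genes had 1 position, older symbols through RefSeq). Alternatives were other pseudocounts, filters, scalings and moderation, a replicate block, leaving out each library, and voom on recovered reads. The main fit did not pair the libraries by replicate number, and same-numbered libraries did not deviate together.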

Additional observations from a re-analysis of the deposited data

How the results depend on the processing

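*PAX2* remained lower and called in 14 of 14 alternatives that tested it (-1.87 to -1.20). *AFF1* (-0.52 to -0.32), *AFF4* (-0.37 to -0.21) and *MLLT3* (-1.34 to -1.09) remained lower and called in 15 of 15. The *AFF3* mean in shPAX2 ran from 19.6 to 20.6 TPM without single libraries. Among 531 values of 37 named genes under the alternatives, 469 kept direction and call, 54 lost the call, 5 gained it and 3 turned direction: *ELL* to 0.04 (0.0357) under quantile normalization, and *ELL3*, which ran from -0.0851 to 0.087 without single libraries (-0.0851 on leaving out shEV replicate 3, -0.0723 on leaving out shPAX2 replicate 1). The cause of these turns was not tested. The tally includes *EVA1C*, *SEZ6L2*, *UNC13A*, *SVIP*, *LINGO2* and *KIAA1211L*, which met the filter only through the group where they are high. The first 5 kept direction and call in 12 of 12 alternatives each and *KIAA1211L* in 11 of 11. This agreement follows from how these genes entered and is no support.

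The count past the fold threshold (598, 188 higher and 410 lower) fell to 303 (94 and 209) with the filter at a TPM of 5, where fewer genes are tested. Without single libraries it ran from 484 to 610, with 100 to 198 higher, lowest without shPAX2 replicate 2 (100) and replicate 3 (104), and 295 to 476 lower. Members called lower numbered 3 whenever 1 library was left out, and 1 member (*MLLT1*) was called higher under median-of-ratios scaling, quantile normalization and voom. Partners numbered 17 higher and 4 lower under median-of-ratios scaling and 5 lower under quantile normalization, and 7 to 12 higher and 4 to 9 lower without single libraries. Flanking genes numbered 2 higher and 3 lower under both other scalings, and 0 to 1 higher and 2 to 7 lower without single libraries (0 higher without shEV replicate 2 or 3 or shPAX2 replicate 1 or 3, and 2 or 3 lower without shEV replicate 2 or 3 or shPAX2 replicate 2).

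Same-numbered libraries did not deviate together (correlations -0.0523, 0.0815 and 0.0014). A replicate block gave 588 genes past the fold threshold, and *ELL2* (adjusted p 0.09), *DOT1L* (0.0539) and *FOS* (0.0686) lost their calls. Depth limits *AFF2* in shPAX2 and *AFF3* in shEV, whose folds are bounds, and *MEG8*, with at most 12 reads.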
